A study of Mus musculus with 10 samples.

Results

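Transcripts of 5 matrix metalloproteinases (Mmp2, Mmp3, Mmp9, Mmp13 and Mmp14) and of the 4 tissue inhibitors of metalloproteinases (Timp1, Timp2, Timp3 and Timp4) were followed through differentiation of C2C12 cells, an established mouse myoblast line. The members were taken by gene symbol, and all 9 were found among the 23388 genes present in all 4 RNA-seq tables. The study asked how gene expression during myogenesis responds when Huwe1, a ubiquitin ligase, is depleted or when USP10, a deubiquitinase, is supplied in excess. There were 10 libraries listed as samples, and 4 tables, of which 1 control column could not be assigned to a listed sample. Cells grown in 10% FBS were taken at day 0, and cells moved to 2% horse serum were taken at day 6 or as day 8 myotubes. The day 0 and day 6 Huwe1 tables each set 1 control library, labelled wildtype, against 2 libraries of cells carrying lentiviral hairpins to Huwe1, a different hairpin in each. By the labels, the day 8 table used another pair of hairpins, delivered to cells already differentiating. The methods of the study instead list the same pair for myoblasts and myotubes, and the labels were followed here. The day 8 control was labelled as non-targeting RNA, while the table's header names it as wildtype. The USP10 table set 1 library of a stable line, in which the EF1a promoter drives USP10 cDNA, against 1 control library. The header of that table repeats the read file name of the other day 6 control, but the values differ, so it is called here the control of the USP10 table and was not assigned to a sample.

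Each condition was deposited as 1 value per gene, with the 2 knockdown libraries merged, so no measurement had a replicate value and no difference was tested. Levels are in FPKM, fragment numbers scaled by transcript length and by the size of the library, which allows genes of different length to be compared within a column. The tables were normalized separately, and levels set across them are descriptions. The estimated depth of the unmerged columns ran from 7800000 fragments in the control of the USP10 table to 29800000 in the day 6 control of the Huwe1 table. The targeted transcript Huwe1 was lower in every knockdown column, at 38.3 against 15.2 FPKM at day 0, 35.1 against 21.9 at day 6 and 55.4 against 33.0 at day 8. Usp10 was at 10.3 FPKM in the control of the USP10 table and 38.3 with USP10 overexpression, and it was also at 13.2 and 35.4 FPKM in the control and knockdown columns of the day 6 Huwe1 table. The muscle regulator Myog was at 0.164 FPKM in the day 0 control and at 619, 305 and 392 in the day 6, USP10 table and day 8 controls.

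Matrix metalloproteinases are zinc-dependent endopeptidases that are made as inactive zymogens and, once activated, cleave collagens, laminins, fibronectin and other proteins around the cell. TIMPs bind the active site and block it. Mmp14 is anchored in the plasma membrane, and with Timp2 as a bridge it activates the zymogen of the gelatinase Mmp2, so Timp2 serves that pathway as cofactor as well as inhibitor. In muscle, proteolysis of the basement membrane by these enzymes is known to accompany myoblast migration, fusion and repair.

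The members fell into expressed and nearly silent genes. Mmp2, Mmp14, Timp1, Timp2 and Timp3 were at 8.15 FPKM or more in every column, whereas Mmp9, Mmp13 and Timp4 stayed under 1 FPKM in all 8 columns. Mmp3 was the exception, with 1 FPKM or more in 2 columns, both of treated cells at day 6. Timp2 had the highest median level over the 8 columns, 334.9 FPKM, followed by Timp3 at 110.5, Mmp14 at 85.98, Timp1 at 85.8 and Mmp2 at 62.8.

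**Figure D1:**
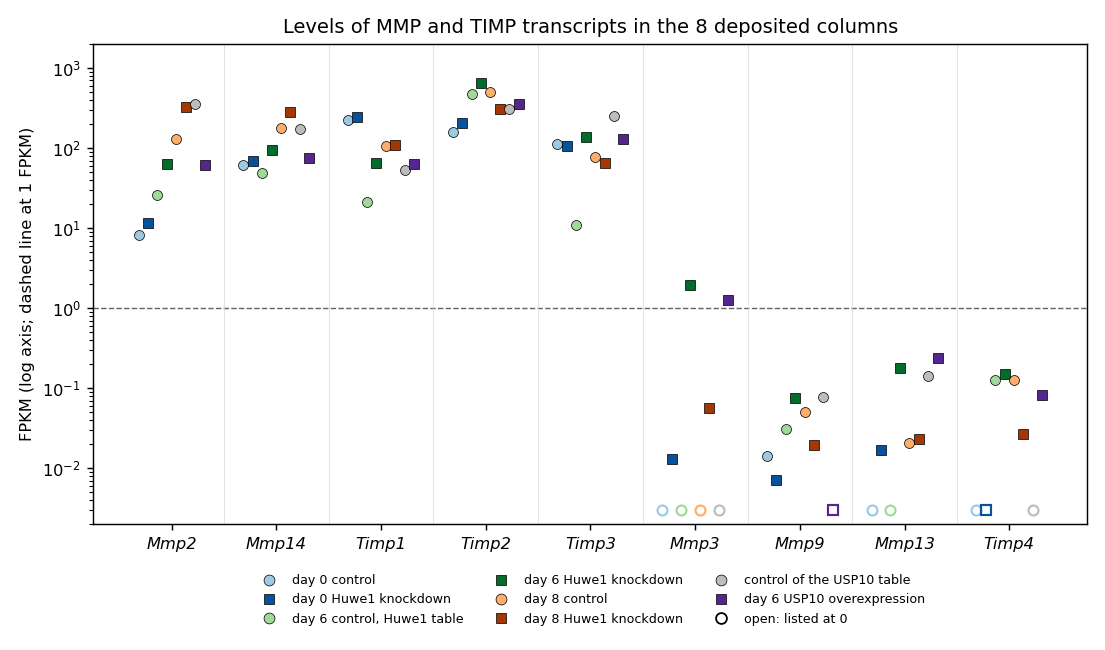
Level of each gene (FPKM, log axis) in the 8 deposited columns, with 1 point per column, circles for controls, squares for treated cells and open symbols for values listed at 0. Mmp2, Mmp14 and the TIMPs Timp1 to Timp3 lie above the dashed line at 1 FPKM in every column, and Mmp3 crosses it in the day 6 knockdown (1.98 FPKM) and USP10 overexpression (1.26 FPKM) columns.

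Promoters are shown for Mmp3 and Mmp13, a stromelysin and a collagenase gene on chromosome 9, and for Timp3, the TIMP that differed most between day 6 columns. They were chosen because the protease genes carry letters that the inhibitor's window lacks. The 120 bases before each annotated start are given from RefSeq, build GRCm38.p6, plus strand, 5′ to 3′. Capitals mark matches to the AP-1 motif TGANTCA and to the TATA box TATAAA, each searched on both strands. The windows are chr9:7445702-7445821 for Mmp3, chr9:7272394-7272513 for Mmp13 and chr10:86300292-86300411 for Timp3.
Mmp3: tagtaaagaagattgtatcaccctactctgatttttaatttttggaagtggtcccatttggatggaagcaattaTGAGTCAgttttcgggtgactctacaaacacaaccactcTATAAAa
Mmp13: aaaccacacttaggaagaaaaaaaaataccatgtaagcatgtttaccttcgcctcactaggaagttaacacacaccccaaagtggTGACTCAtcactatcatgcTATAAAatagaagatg
Timp3: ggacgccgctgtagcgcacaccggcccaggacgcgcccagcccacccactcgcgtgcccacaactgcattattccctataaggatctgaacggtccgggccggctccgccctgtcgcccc

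In Mmp3 the AP-1 match began 46 bases before the start, and in Mmp13 it began 35 bases before. A TATAAA match began 7 bases before the annotated start in Mmp3 and 16 in Mmp13. Of 9 members, 7 had a promoter entry, and Mmp14, Timp1, Timp2, Timp3 and Timp4 held neither motif in the 250 bases before to 50 after the start. Among 32851 promoters of that length, 7.81% held the AP-1 letters, 13.6% the TATA letters and 1.54% both. Mmp2 and Mmp9 had no entry in the table used.

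Mmp2, the gelatinase that degrades type IV collagen and denatured collagens, was the member whose level ranged most widely among the 5 that were expressed. It was at 8.15 and 11.7 FPKM in the day 0 control and knockdown, 26.1 and 64.1 at day 6, and 131 and 322 at day 8, and at 359 and 61.5 in the control and overexpression columns of the USP10 table. Within the Huwe1 tables each knockdown column was above its control and each later day was above the earlier. In the USP10 table the order was the opposite, the control holding the highest level of all 8 columns. In the annotation used (GENCODE M21, GRCm38) the gene lies at chr8:92827291-92853420.

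Mmp14, the membrane-type metalloproteinase (chr14:54431612-54445364), was at 61.8 and 68.6 FPKM in the day 0 control and knockdown, 49.6 and 95.9 at day 6, 178 and 285 at day 8, and 175 and 76.1 in the USP10 table. It thus varied less than Mmp2 but in the same order within each table. Over the 8 columns the log2 levels of the 2 genes had a Pearson correlation of 0.88, a description of 8 points that share tables and scaling.

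Timp1, a secreted inhibitor known to be induced by growth factors and cytokines, was the most abundant member in growing myoblasts. Its levels were 227 and 246 FPKM in the day 0 control and knockdown, 21.5 and 65.8 at day 6, 106 and 110 at day 8, and 53.5 and 64.1 in the control and overexpression columns of the USP10 table. The day 0 columns were the highest and the day 6 control the lowest. Timp1 (chrX:20870166-20874735) lies inside the synapsin gene Syn1 on the opposite strand, and the locus listed in the tables spans both. No exon bases are shared, but whether the counting used strand is not given in the sources used here, and Syn1 was at 0.645 and 12.1 FPKM in the day 6 control and knockdown.

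Timp2, the cofactor for Mmp2 activation (chr11:118301069-118355740), was at 158 and 209 FPKM in the day 0 control and knockdown, 473 and 655 at day 6, 509 and 307 at day 8, and 312 and 358 in the USP10 table. It was above the other members in both columns of the day 6 Huwe1 table, in the day 8 control and with USP10 overexpression. In the day 6 knockdown only 0.788% of genes with at least 1 FPKM were above it.

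Timp3, which is held in the matrix and also inhibits the sheddase ADAM17, had the largest range among the TIMPs that were expressed. It was at 114 and 107 FPKM in the day 0 control and knockdown, 11.1 and 136 at day 6, 77.3 and 64.4 at day 8, and 256 and 128 in the control and overexpression columns of the USP10 table. A single column, the day 6 control of the Huwe1 table, stood at the low end, and the other 7 lay between 64.4 and 256 FPKM. Timp3 (chr10:86300372-86349506) lies inside Syn3 on the opposite strand with no shared exon bases. Syn3 was between 0.0869 and 0.192 FPKM in every column.

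Mmp3, the stromelysin that cleaves proteoglycans, laminin and fibronectin and can activate other zymogens (chr9:7445822-7455975), was listed at 0 in all 4 control columns. It was at 0.0133 FPKM in the day 0 knockdown, 1.98 in the day 6 knockdown, 0.0568 in the day 8 knockdown and 1.26 with USP10 overexpression. The USP10 value corresponded to an estimated 62.6 fragments. A count of 3 fragments would have been listed at about 0.0558 FPKM in the day 6 control beside the knockdown, at about 0.214 in the control of the USP10 table, and at about 0.0759 and 0.0925 in the day 0 and day 8 controls. The day 0 and day 8 knockdown values lay under those levels, and the depth of the merged columns is not known. All 12 housekeeping genes examined were above 0 in every column. Mmp3 was thus clearly detected in the treated columns of day 6 alone, with no more than 1.98 FPKM, and 91.9% of expressed genes were above it even where it was highest.

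Mmp13, a collagenase (chr9:7272514-7283331), was listed at 0 in the day 0 and day 6 controls and was at 0.0171 and 0.180 FPKM in the knockdowns beside them. It was at 0.0205 and 0.0234 FPKM in the day 8 control and knockdown, and at 0.142 and 0.240 in the USP10 table, where these values stood for an estimated 2.95 and 17.7 fragments. Its highest levels were those with USP10 overexpression and in the day 6 knockdown, the same columns in which Mmp3 was highest. Mmp9, the gelatinase prominent in inflammatory cells (chr2:164940780-164955850), reached at most 0.0787 FPKM, an estimated 1.95 fragments in the control of the USP10 table, and was listed at 0 with USP10 overexpression. Timp4, the inhibitor best known from the heart (chr6:115241892-115252205), was listed at 0 in 3 columns and reached 0.152 FPKM in the day 6 knockdown. It overlaps Syn2 on the opposite strand and shares 90 of its 5894 exon bases with it. In unmerged columns Mmp9 rested on an estimated 2.93 fragments or fewer, at which no difference was detectable, and Timp4 on an estimated 20.6 or fewer.

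No replicates were at hand for the spread between cultures, and the pair of day 6 controls was used as the nearest measure of it. Across the separately normalized tables these columns differed at least 2-fold for 19.9% of 11459 genes, with 11.2% higher and 8.66% lower in the control of the USP10 table, and the robust SD of the log2 ratio, from the median absolute deviation, was 0.63. Of the 5 expressed members, 4 were at least 2-fold higher in the control of the USP10 table. Mmp2 was 13.8-fold higher, with 1.32% of genes at or above it in that ratio. Timp3 was 23.1-fold higher, Mmp14 3.53-fold and Timp1 2.49-fold, while Timp2 was 1.52-fold lower. The least covered of them in that column, Timp1, had an estimated 367 fragments.

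The treated columns at day 6 were closer to each other than the controls were for Mmp2, Mmp14, Timp1 and Timp3, but not for Timp2. The day 6 knockdown and USP10 overexpression columns held 64.1 and 61.5 FPKM of Mmp2, 65.8 and 64.1 of Timp1, 136 and 128 of Timp3, and 95.9 and 76.1 of Mmp14. Timp2 was at 655 and 358 FPKM, a log2 ratio of -0.87 beside -0.60 between the controls, and Mmp3 was at 1.98 and 1.26 FPKM. For Mmp2, Timp1 and Timp3 the log2 ratio of USP10 overexpression to knockdown lay between -0.09 and -0.04, and the median over all genes was -0.05 with a robust SD of 0.44. At least 2-fold differences either way between these treated columns were seen for 9.59% of 11351 genes.

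**Figure D2:**
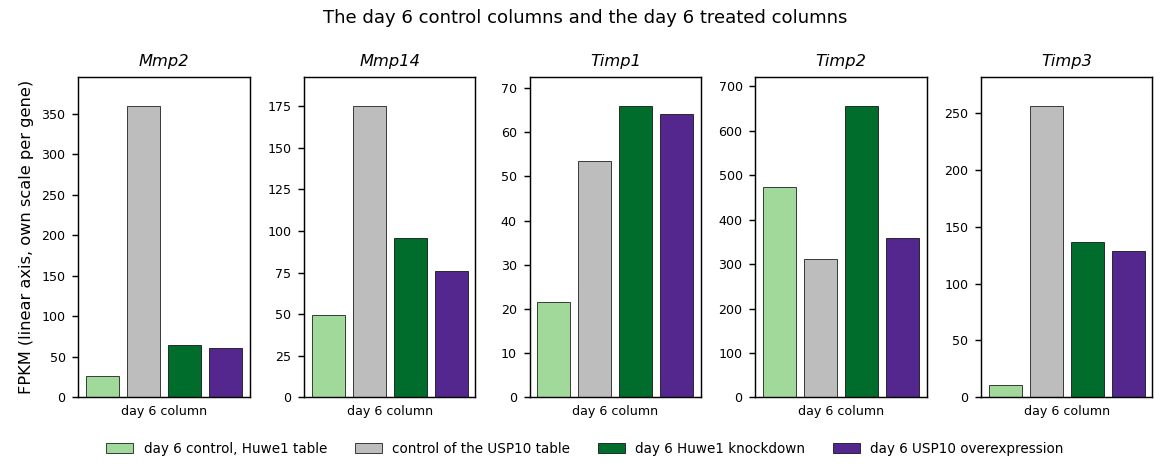
FPKM (linear axis with its own scale for each gene) of the 5 expressed genes in the control and treated columns of day 6, 1 bar per deposited value, so there are no error bars. For Mmp2, Mmp14 and Timp3 the treated columns lie between the control columns, as with 64.1 and 61.5 FPKM between 26.1 and 359 for Mmp2.

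At day 0, Huwe1 knockdown went with little difference in these genes. Of the 5 members with at least 1 FPKM, 0 were at least 2-fold higher and 0 at least 2-fold lower, beside 1.90% and 1.69% of 10874 genes. The largest ratio was that of Mmp2, 1.43-fold higher in the knockdown, and the smallest that of Timp3, 1.06-fold lower. Timp2 was 1.32-fold higher, Mmp14 1.11-fold and Timp1 1.08-fold. Mmp2 and Timp2 lay outside 1 robust SD of all genes in this table, which was 0.29 on the log2 scale.

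At day 6 the inhibitors Timp3 and Timp1 and the protease Mmp2 were at least 2-fold higher in the Huwe1 knockdown than in the control. Among the 5 members with at least 1 FPKM in both columns these were the 3 at least 2-fold higher, with 0 lower. Of 10292 genes with that minimum in both columns 12.5% were higher and 10.7% lower, and of 11695 genes with it in either column 17.6% and 13.4%. Timp3 was 12.3-fold higher, and 3.65% of genes had a ratio at or above it. Timp1 was 3.07-fold and Mmp2 2.46-fold higher, with 11.0% and 13.9% of genes at or above those ratios. Mmp14 was just under the threshold at 1.93-fold, and Timp2 was at 1.39-fold. Mmp3 passed the 1 FPKM minimum through its knockdown value alone, from a control listed at 0, and is not counted among them. These ratios rest on 1 control column. Against the control of the USP10 table, the log2 ratios of the knockdown were -2.48 for Mmp2, -0.91 for Timp3 and -0.87 for Mmp14. Those of Timp1 and Timp2 were 0.30 and 1.07, which put Timp2 past the 2-fold threshold. The direction was thus the opposite for Mmp2, Mmp14 and Timp3.

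Markers of other states moved with the day 6 columns. Myog was at 619 and 27.1 FPKM in the control and knockdown, and Dcn, the matrix proteoglycan decorin expressed by fibroblasts, at 7.94 and 2987. The summed level of the 7 fibroblast and mesenchymal markers was 127 and 3819 FPKM. Of the 6 that reached 1 FPKM in either column all 6 were at least 2-fold higher, beside 17.6% of all genes. Lum, at 0.0651 and 5.73 FPKM, passed through its knockdown value alone. Thy1, a defining marker of that list, was at 0 in both columns. The 7 muscle markers summed to 3503 and 1435 FPKM, with 4 at least 2-fold lower and 1 higher, beside 13.4% and 17.6% of all genes. In the USP10 table Dcn was at 50.3 and 3037 FPKM, the mesenchymal sum at 504 and 3642, and the muscle sum at 2236 and 1227. Without Dcn the mesenchymal sum was 119 and 832 FPKM in the day 6 Huwe1 table and 454 and 605 in the USP10 table, where 2 of 6 markers were at least 2-fold higher and Pdgfrb was at 52.1 and 33.5 FPKM. The part played by these markers in the Mmp and Timp ratios was not tested, and in bulk RNA a change in the share of cells of a kind and a change in RNA per cell cannot be told apart. The macrophage and neutrophil markers summed to between 0.842 and 4.85 FPKM over the 8 columns, most of it Cd68, and Ptprc, a defining marker, was at 0.0102 FPKM or less. The 4 endothelial markers summed to between 0.106 and 13.6 FPKM over the columns, and to 0.106 and 7.92 at day 6, led by Cdh5 at 6.83 in the knockdown, and Pecam1 was at 0.346 FPKM or less in every column. The 4 adipocyte markers summed to between 3.28 and 16.0 FPKM, led by Pparg, with Adipoq listed at 0 throughout.

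In day 8 myotubes Mmp2 was at 131 FPKM in the control and 322 in the Huwe1 knockdown, 2.46-fold higher, close to the ratio seen at day 6. Mmp14 was 1.60-fold higher in the knockdown, whereas Timp2 was 1.66-fold lower, Timp3 lower with a log2 ratio of -0.26 and Timp1 1.04-fold higher. Of the 5 expressed members, 1 was at least 2-fold higher and 0 lower, beside 7.89% and 10.0% of 11755 genes. For Mmp2, 4.93% of genes had a ratio at or above it, beside 13.9% at day 6. Timp3 and Timp1, which were at least 2-fold higher at day 6, differed here by less than the robust SD of all genes, 0.60 on the log2 scale. The muscle markers summed to 3725 FPKM in this control and 1181 in the knockdown, and the mesenchymal markers to 531 and 834, of which Col3a1 made up 411 and 710. Of the 5 mesenchymal markers that passed the minimum, 2 were at least 2-fold higher, with Dcn at 4.19 and 8.75 FPKM and Col1a1 at 69.1 and 65.4.

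With USP10 overexpression at day 6 the proteases Mmp2 and Mmp14 were lower than in the control of that table. Mmp2 was 5.84-fold lower, at 61.5 against 359 FPKM, and 96.7% of genes had a ratio at or above it. Mmp14 was 2.30-fold lower and Timp3 1.99-fold lower, just short of the threshold. Timp1 and Timp2 were slightly higher, with log2 ratios of 0.26 and 0.20, both within the robust SD of all genes in that table, 0.59 on the log2 scale. Of the 5 members with at least 1 FPKM in both columns, 2 were at least 2-fold lower and 0 higher. Of 10400 genes with that minimum in both columns 6.43% were lower and 7.12% higher, and of 11482 genes with it in either column 10.0% and 9.70%. The direction for Mmp2, Mmp14, Timp2 and Timp3 depended here too on the control column. Against the day 6 control of the Huwe1 table, Mmp2 with USP10 overexpression was higher by 1.24 on the log2 scale, Mmp14 by 0.62, Timp1 by 1.58 and Timp3 by 3.54, and the log2 ratio of Timp2 was -0.40.

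**Figure D3:**
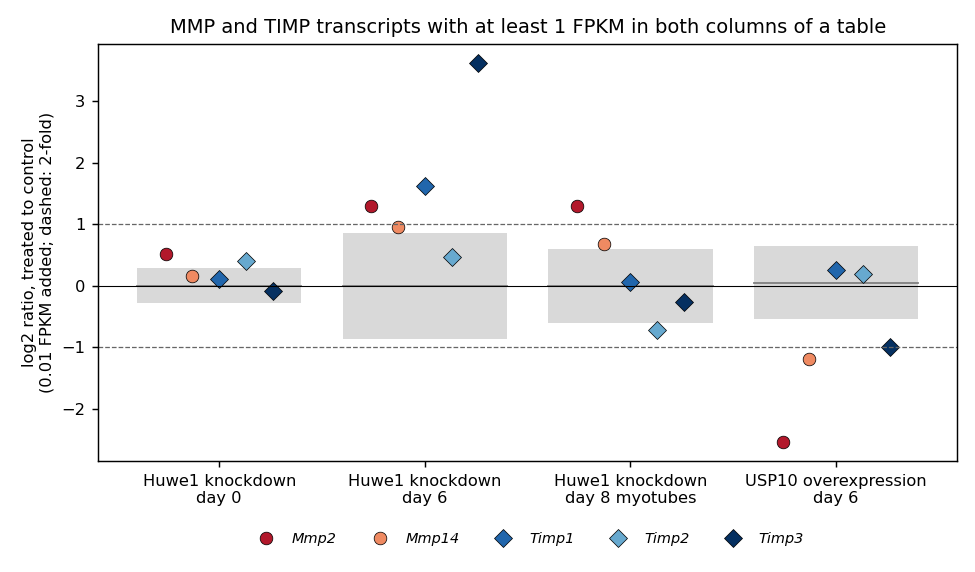
Log2 ratio of treated to control FPKM (0.01 FPKM added) for the 5 expressed genes in each table, circles for proteases and diamonds for TIMPs, over grey bands of the median of all genes plus and minus 1 robust SD. Mmp2 lies at 1.30 at both day 6 and day 8 of knockdown and at -2.54 with USP10 overexpression, and Timp3 at 3.62 in the day 6 knockdown alone.

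The balance of inhibitor to protease transcript can be read within a column, where the scaling of the table cancels. The ratio of Timp2 to Mmp2 was 19.4 and 17.9 in the day 0 control and knockdown, 18.1 and 10.2 at day 6, and 3.89 and 0.952 at day 8, and it was 0.869 and 5.81 in the control and overexpression columns of the USP10 table. Day 0 columns therefore held many more Timp2 than Mmp2 transcripts per length, and the day 8 knockdown about as many of each. Timp2 to Mmp14 was at its highest in the day 6 control of the Huwe1 table, 9.54, and at its lowest in the day 8 knockdown, 1.08. The 4 TIMPs summed to 499 FPKM and the 5 MMPs to 69.99 in the day 0 control, a ratio of 7.13. The sums were 481 and 607 FPKM in the day 8 knockdown, a ratio of 0.793 and the only column in which the summed proteases exceeded the summed inhibitors. In each Huwe1 table the summed ratio was lower in the knockdown than in the control, by the least at day 0, 7.13 against 6.99. In the USP10 table it was higher with overexpression, 3.96 against 1.16. At day 6 both directions depended on the control column, since the summed ratio was 6.68 in the day 6 control beside the knockdown, where the knockdown had 5.29, and 1.16 in the control of the USP10 table.

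**Figure D4:**
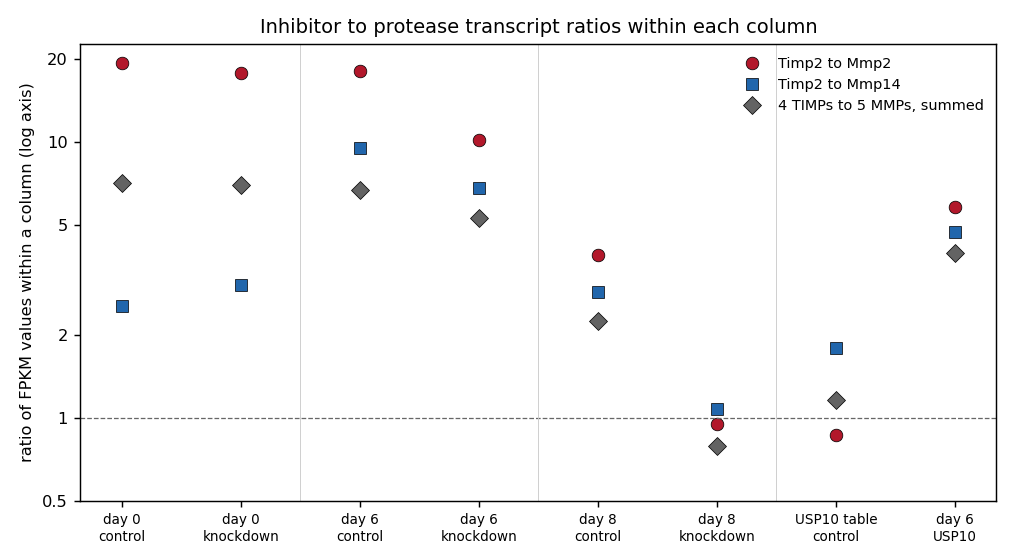
Ratios of FPKM values within each of the 8 columns (log axis, dashed line at 1), 1 point per column for Timp2 to Mmp2, Timp2 to Mmp14 and the summed TIMPs to the summed MMPs. Timp2 to Mmp2 runs from 19.4 in the day 0 control down to 0.952 in the day 8 knockdown and 0.869 in the control of the USP10 table.

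Which member was most abundant also differed between columns. In both day 0 columns the order was Timp1, Timp2, Timp3, Mmp14 and Mmp2, and Timp1 and Timp2 differed there by less than the robust SD between the day 6 controls. That SD describes how far a gene differed between control columns, so for different genes within a column it is only a rough yardstick. Mmp2, Mmp14, Timp1 and Timp3 themselves differed by more than it between those controls, and Timp2 by less. In the day 6 control of the Huwe1 table Timp2 was followed by Mmp14, Mmp2, Timp1 and Timp3, with Timp2 3.25 above Mmp14 on the log2 scale and Mmp2 and Timp1 within the spread of each other. In the day 6 knockdown Timp2 was followed by Timp3, Mmp14, Timp1 and Mmp2, the order also found with USP10 overexpression, but Timp3, Mmp14, Timp1 and Mmp2 were each within the spread of the next in the knockdown, and Mmp14, Timp1 and Mmp2 were with overexpression. In the day 8 knockdown Mmp2 led, with Timp2 and Mmp14 within that spread of it, and it also led in the control of the USP10 table, with Timp2 within the spread.

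Set across the tables, the controls gave 3.20-fold more Mmp2 and 2.998-fold more Timp2 at day 6 than at day 0, while the levels of Timp1 and Timp3 at day 6 were 0.0944 and 0.0973 of those at day 0. With the control of the USP10 table in place of the day 6 control, Mmp2 was 44.0-fold and Timp3 2.25-fold above day 0, and Timp1 was at 0.235 of its day 0 level. Mmp2 and Timp2 were thus higher and Timp1 lower than at day 0 with either control, whereas the direction for Timp3 and Mmp14 depended on which was used. These ratios cross separately scaled tables, and the median of 12 housekeeping genes differed by -1.06 and -0.84 on the log2 scale in the same comparisons.

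The genes whose levels over the 8 columns were most like those of each member, among 8370 genes that reached 10 FPKM, are given as a description by Pearson correlation of log2 values with 1 FPKM added. For Mmp2 they were Prelp, a small proteoglycan of the matrix (0.98), Gas1 (0.98) and Tmeff2 (0.98). Prelp was at 0.0615 FPKM in the day 0 control, 2.05 and 14.4 in the day 6 control and knockdown, 36.4 and 107 at day 8, and 69.0 and 19.4 in the USP10 table. For Mmp14 they were Tcf7l2 (0.98), Plod1, a collagen lysyl hydroxylase (0.97), and Tmem176b (0.96). For Timp1 they were Casp8 (0.99), Ckap4 (0.98) and Slc43a3 (0.98), and for Timp2 Haghl (0.97), Pdp1 and Camk2b (both 0.96). Timp3 was most like Glrx (0.95), Crtap, of the collagen prolyl 3-hydroxylase complex (0.93), and Cald1, caldesmon (0.93). Among the members themselves the correlations ran from -0.69 for Timp1 with Timp2 to the 0.88 of Mmp2 with Mmp14.

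The genes that act on or beside the members were counted from lists with the same minimum of 1 FPKM in either column, which also lets in genes through their higher column. Of 23 activators, cofactors and inhibitors of MMPs, 11 of the 18 that passed were at least 2-fold higher and 2 lower in the day 6 knockdown, with a median log2 ratio of 1.73. Among those with at least 5 FPKM in 1 column and 1 in both, the largest ratios were those of Thbs2, thrombospondin-2, which binds Mmp2 and directs its uptake (4.12 against 238 FPKM), of the urokinase gene Plau (4.44 against 66.6) and of the tissue plasminogen activator gene Plat (4.31 against 41.7). In the control of the USP10 table Thbs2, Plau and Plat were at 36.6, 16.7 and 11.8 FPKM, so they kept their direction. The day 6 knockdown count itself was taken against the day 6 control of the Huwe1 table alone. At day 0 the counts were 1 higher and 0 lower of 16, at day 8 they were 1 and 3 of 17, and with USP10 overexpression 3 and 2 of 18. Over all genes the shares higher and lower were 17.6% and 13.4% at day 6, 1.90% and 1.69% at day 0, 7.89% and 10.0% at day 8, and 9.70% and 10.0% with USP10 overexpression. With USP10 overexpression Thbs2 was at 239 FPKM against 36.6, and Cd44, a docking receptor for MMPs, at 119 against 32.9. At day 8 Plau was lower in the knockdown, at 11.8 against 24.2 FPKM, while Serpine2 was higher at 14.03 against 2.46.

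Of 12 basement membrane and matrix substrates, 10 were at least 2-fold higher and 0 lower in the day 6 knockdown, with a median log2 ratio of 1.79. Nid1, nidogen-1, was at 10.7 FPKM in control cells and 81.8 with knockdown, Lamb1, a laminin chain, at 12.9 and 68.1, and Col4a1, a type IV collagen chain, at 11.1 and 47.6. The day 6 count depended on the control column. In the control of the USP10 table Fn1 was at 1812 FPKM and Nid2 at 59.5, above the knockdown at 1176 and 55.2. Nid1 (33.4 FPKM), Lamb1 (37.9) and Col4a1 (17.8) kept their direction against that control. Only 1 of 11 was at least 2-fold higher at day 0, namely Nid2 (5.88 against 14.1 FPKM), and 5 of 12 were at day 8, where Nid2 was at 30.6 and 83.7. With USP10 overexpression 1 of 12 was higher, Nid1 at 130 against 33.4 FPKM, and 0 were lower. The sum there was 3411 FPKM in the control and 4275 with overexpression, while Fn1 was at 1812 and 1297. Over all genes the shares at least 2-fold higher were 17.6% at day 6, 1.90% at day 0, 7.89% at day 8 and 9.70% with USP10 overexpression.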

How the data were processed

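RNA from 10 C2C12 libraries listed as samples was measured by RNA-seq, and the control column of the USP10 table was not assigned to any of them. Reads had been mapped with Tophat by the authors, who derived FPKM with Cuffdiff, and the deposited tables hold 1 FPKM value per gene and condition, the knockdown libraries having been merged. The submitters' processing notes name mm10, Bowtie2 and Cuffdiff; versions and annotation are not given in the sources used here. The tables also hold the authors' log2 fold changes, test scores, p-values and q-values, which were not used.

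Groups followed the labels, and 0 columns of sample values were set aside. Python 3.11.15 with numpy 2.4.6, pandas 2.3.3 and matplotlib 3.10.9 was used. Ratios are log2((treated + 0.01)/(control + 0.01)) FPKM, which understates ratios of low genes. Genes needed 1 FPKM in at least 1 column of a table, and 2-fold was the threshold. With 1 value per condition no test was possible. Depth was estimated from the lowest FPKM steps of 3551 genes with a single transcript of at least 1500 bases, so fragment numbers are approximate, and none was given for merged columns. The scripts were tested on simulated data. Members and lists were chosen with earlier results of these data known. Named genes were all 9 members, the targeted genes, up to 3 genes per list and comparison with the largest log2 ratio among those with at least 5 FPKM in 1 column and 1 in both, 3 most-like genes per member with at least 10 FPKM, and marker lists with their highest or defining genes. Some values of markers, synapsin genes, further MMPs such as Mmp10, matrix substrates and genes repeated beside another comparison were added after values were seen. Protein sequences were planned but not used here. A gene that the rule for named genes picked is not reported here. Other pseudocounts, minimums, thresholds, centring and control columns were tried.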

Additional observations from a re-analysis of the deposited data

Results flagged for a closer look

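For 2 of the inhibitors the sign of the Huwe1 knockdown log2 ratio differed between days, and with 1 value per condition the difference was not tested. Timp3 was 3.62 in the day 6 knockdown, against -0.08 at day 0 and -0.26 at day 8, so day 6 minus day 0 was 3.70 and day 8 minus day 6 was -3.89. The day 6 value rests on a control of 11.1 FPKM, and against the control of the USP10 table it was -0.91, which has the sign of the other days. The day 0 and day 8 values of Timp3 lay within the robust SD of all genes in their tables, 0.29 and 0.60, so their sign carries little weight. Timp2 was 0.40 at day 0, 0.47 at day 6 and -0.73 at day 8, so day 8 minus day 0 was -1.13 and day 8 minus day 6 was -1.20. Its day 6 value also lay within the robust SD of that table, 0.87. The day 8 knockdown used, by the labels, other hairpins, and also another time of infection and another control, which cannot be told apart from the day.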

How the results depend on the processing

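Of 128 log2 ratios of members recomputed with other pseudocounts, minimums or centring, 124 moved by less than the robust SD between the day 6 controls and 0 changed sign. A minimum only decides which genes enter and cannot alter a ratio. The ratios recomputed with other minimums were therefore the same by construction. Centring shifts a ratio by the median of its table, at most 0.05, so it could not reach that SD. An added 0.1 or 1 FPKM does little to the expressed members, which were at 8.15 FPKM or more. Only the ratios of low genes could thus have moved, and the 124 carry little weight as a check. The 4 that moved were those of Mmp3, whose control is listed at 0. They came to 4.38 and 1.57 in the day 6 knockdown and 3.76 and 1.17 with USP10 overexpression when 0.1 or 1 FPKM was added. Of 56 counts of members past the threshold, Mmp3 included, 48 stayed within 1.5 times of the first, which were 4 higher in the day 6 knockdown and 1 higher and 2 lower with USP10 overexpression. Without a minimum, 2 members were higher at day 0, 2 higher and 2 lower at day 8, and 2 higher with USP10 overexpression, since near-silent genes then enter. With a minimum of 5 FPKM, or of 1 in both columns, 0 were higher with USP10 overexpression. At a threshold of 3-fold, 0 were higher at day 8 and 1 lower with USP10 overexpression. Exchanging the day 6 controls, an alternative chosen after seeing the data and crossing tables, gave 2 higher and 1 lower in the day 6 knockdown and 4 higher and 0 lower with USP10 overexpression. It turned the sign of Mmp2 (-2.48), Timp3 (-0.91) and Mmp14 (-0.87) in the knockdown and of Mmp2 (1.24), Mmp14 (0.62), Timp3 (3.54) and Timp2 (-0.40) with USP10 overexpression, and the cause was not tested. No paired analysis was possible because the knockdown libraries were merged and no result comes from a test, and single replicates could not be left out for the same reason.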

Other observations

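Other secreted and membrane proteases outside the 9 members also differed between columns. Over all genes the shares at least 2-fold higher and lower were 1.90% and 1.69% at day 0, 17.6% and 13.4% at day 6, 7.89% and 10.0% at day 8, and 9.70% and 10.0% with USP10 overexpression, against which the counts here are small numbers of genes. The minimum of 1 FPKM in either column also lets in genes through their higher column. Among 18 further MMP genes, 6 reached 1 FPKM in the day 6 Huwe1 table, with 3 at least 2-fold higher and 2 lower in the knockdown. Mmp10 (0.0202 and 1.55 FPKM) and Mmp28 (0.206 and 2.01) passed through the knockdown value alone. Mmp23 (2.30 and 0.192) passed through the control value alone. Mmp11, stromelysin-3, was at 8.55 and 41.0 FPKM in the day 6 control and knockdown, 8.76 and 53.2 at day 8, and 25.5 and 49.5 in the control and overexpression columns of the USP10 table, while at day 0 it was at 9.99 and 5.89. Mmp15, a membrane-type enzyme, went the other way, at 25.0 and 3.58 FPKM at day 6, 43.7 and 6.79 at day 8, and 8.69 and 1.44 in the USP10 table. Mmp19 was at 5.66 and 10.3 FPKM at day 6. Mmp1a, Mmp1b and Mmp7 were listed at 0 in all 8 columns, and Mmp10, a stromelysin like Mmp3, was at 0 in 3 columns and highest with USP10 overexpression at 4.77 FPKM.

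Of 14 ADAMTS proteases, which cut proteoglycans and process procollagen, 8 of the 10 that passed the minimum were at least 2-fold higher and 0 lower in the day 6 knockdown. Adamts4, an aggrecanase, was at 1.26 and 9.69 FPKM and Adamts7 at 3.92 and 19.6. This count depended on the control column. In the control of the USP10 table Adamts5 was at 42.8 FPKM, above the day 6 knockdown at 30.2. Adamts4 (2.33 FPKM) and Adamts7 (5.21) kept their direction against that control. At day 0 the counts were 0 higher and 1 lower of 9, at day 8 they were 3 and 1, and with USP10 overexpression 2 and 0. Adamts5 was at 6.95 and 21.5 FPKM in the day 8 control and knockdown. Of 10 ADAM genes 7 passed in each table, with 1 higher and 2 lower in the day 6 knockdown, 1 and 1 with USP10 overexpression, and 0 in either direction at day 0 and at day 8. Adam15 was at 10.7 and 31.7 FPKM at day 6. Of 11 cathepsins and other matrix proteases, 6 passed at day 6 with 2 higher and 1 lower, namely the serine protease Htra1 (20.3 and 181 FPKM), the procollagen C-proteinase Bmp1 (10.6 and 46.5) and the lysosomal cathepsin Ctsd (649 and 299). In the control of the USP10 table Htra1 was at 244 FPKM, above the knockdown, so its direction depended on the control column. Bmp1 (13.8 FPKM) and Ctsd (640) kept their direction against that control. At day 8 2 of 8 were higher, Ctsb among them at 95.5 and 229 FPKM, and none of the 5 or 6 that passed differed 2-fold at day 0 or with USP10 overexpression. These are values of single columns with no test.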
